A study of Mus musculus with 6 samples.

Results

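The mitochondrial genome of the mouse encodes the core of the respiratory chain, and 8 of its genes are described here in circulating red cells. They are mt-Co1, mt-Co2 and mt-Co3 (cytochrome c oxidase subunits), mt-Atp6 and mt-Atp8 (ATP synthase subunits), mt-Cytb (cytochrome b of complex III), and the genes of both ribosomal RNAs, mt-Rnr1 and mt-Rnr2. They were taken by name from the 27179 genes in the deposited count files, and all 8 had counts in all 6 libraries. The other mitochondrially encoded genes measured were the 7 that encode subunits of complex I, and these serve for comparison. The 8 genes were chosen by a genotype difference already seen in these libraries, in which mitochondrially encoded transcripts were higher in mutants and the 2 rRNAs had the smallest changes. The genotype values of the 8 genes are therefore given as a description, with no p-value, and nothing is read from counts of them past a threshold.

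The study set Nxf1+/C587R males, heterozygous for a missense allele of Nxf1, against Nxf1+/+ littermates. Nxf1 encodes the main nuclear export receptor for messenger RNA. All animals were of the BalB/c strain, and each of the 3 mutant and 3 wild-type libraries came from 1 male, with 1 library of either genotype in each of 3 labelled batches. Red cells were pelleted from heart blood through a density gradient, checked by flow cytometry and lysed, and polyadenylated RNA was sequenced, per the labels' protocols. Animal age was not given in the sources used here. The labels name no tissue to which the allele was restricted.

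Libraries held 14636739 to 15790336 counts, and globin transcripts took 88.9% to 89.3% of counts in mutants and 88.1% to 88.9% in wild type. Nxf1 itself had 9, 7 and 11 counts in mutants and 15, 10 and 20 in wild type, and a missense allele leaves no mark in counts per gene, so these values do not check the genotype labels. The high globin share matched the labelled cell type. Other red cell markers ranged widely, and among them Epor had 0 to 3 counts per library and Gata1 8 to 28. Bnip3l, which encodes a receptor for mitochondrial clearance in reticulocytes, had 7316 to 8844 counts in mutants and 8904 to 10456 in wild type. Slc4a1, the anion exchanger of the red cell membrane, had 925 to 1447 counts in mutants and 1508 to 2251 in wild type. These counts are unscaled, and the order of the genotypes can change with scaling. The TMM factors, by which the fit across all genes scales each library, were 0.72, 0.78 and 1.06 in mutants. In wild type they were 1.23, 1.11 and 1.23, and a higher factor lowers the scaled value. Hepatocyte transcripts stood out in all 3 mutant libraries, and their values are given beside the mitochondrial ones. Wild-type library 1 held 90 counts of the liver and plasma protein gene Ttr, which had 0 counts in both other wild-type libraries.

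Mitochondrial DNA is transcribed into long RNAs that are cut into messenger, ribosomal and transfer RNAs, many of them at the transfer RNAs between genes. The messengers then receive an A tail, which completes the stop codon of those genes that end in a bare T or TA, and the ribosomal RNAs receive short tails. Red cell precursors carry mitochondria for haem synthesis and respiration, reticulocytes lose them by autophagy, and mature mammalian red cells have none. In blood, mitochondrial transcripts are also found in platelets and white cells.

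The sequences shown first are the last 30 bases of each gene, shown because polyA selection captures transcripts by their end. The mt-Atp8 end lies inside mt-Atp6, and these annotated gene ends need not be the ends of transcripts. They are reference sequences of GENCODE M21 (GRCm38, the build also called mm10), not reads of these animals, and all 8 genes lie on the plus strand. Capitals mark the encoded letters of the stop codon. mt-Co3 and mt-Cytb end in a single T, their lengths of 784 and 1144 bases leaving 1 base beyond whole codons. The other 4 protein-coding genes end in an encoded TAA. The 6 protein-coding genes are called mRNAs below, and counts by gene do not show which of them share a transcript.
mt-Co1: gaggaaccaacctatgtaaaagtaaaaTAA
mt-Co2: ttcgaaaactgatctgcttcaataattTAA
mt-Co3: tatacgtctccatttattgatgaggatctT
mt-Atp8: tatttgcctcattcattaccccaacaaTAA
mt-Atp6: gtaagcctatatctacatgataatacaTAA
mt-Cytb: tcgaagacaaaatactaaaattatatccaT
mt-Rnr1: aagcatactggaaagtgtgcttggaataat
mt-Rnr2: atacgtacaccctctaacctagagaaggtt

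The 2 rRNA genes lie next to each other near the start of the numbered genome, mt-Rnr1 at chrM:70-1024 and mt-Rnr2 at chrM:1094-2675. mt-Co1 spans chrM:5328-6872 and mt-Co2 chrM:7013-7696. mt-Atp8 (chrM:7766-7969), mt-Atp6 (chrM:7927-8607) and mt-Co3 (chrM:8607-9390) are joined end to end, and mt-Cytb stands apart at chrM:14145-15288. mt-Atp6 shares 1 base with mt-Co3. It shares 43 bases with mt-Atp8, read in different frames, and that stretch is shown because a read inside it could be assigned to either gene. Capitals mark the mt-Atp6 start codon and the mt-Atp8 stop codon at chrM:7927-7969.
mt-Atp8 and mt-Atp6: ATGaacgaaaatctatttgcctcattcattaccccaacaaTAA

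Most of these genes also have copies in the nuclear genome, relics of mitochondrial DNA inserted in chromosomes, and a read that matches a copy exactly cannot be placed. GENCODE M21 lists a row of unprocessed pseudogenes on the minus strand of chromosome 1, from 24611535 to 24616197 in mm10. Among them Gm28661 matched 681 bases of mt-Co2, Gm10925 matched 678 bases of mt-Atp6 and Gm28437 matched 783 bases of mt-Co3, each at 100% identity. Gm29216 matched 483 bases of mt-Co1 at 99.8% identity. On chromosome 2, Gm13340 matched the whole 1545 bases of mt-Co1 at 97.6%, and on chromosome 4, Gm11410 matched 1142 bases of mt-Cytb at 92.9%. None of these pseudogenes had a row in the count files.

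A few pairs of 60-base windows show the range of likeness, from none to several differences, with differing bases in capitals. The copies are written on their own strand. The mt-Atp6 window is at chrM:8126-8185 and its copy at chr1:24614393-24614452 (minus strand), with 0 mismatches. The mt-Co1 window is at chrM:5527-5586 and its copy at chr2:22589389-22589448 (minus strand), with 1 mismatch. The mt-Cytb window is at chrM:14344-14403 and its copy at chr4:80004188-80004247 (plus strand), with 3 mismatches.
mt-Atp6: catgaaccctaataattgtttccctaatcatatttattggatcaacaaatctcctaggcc
Gm10925: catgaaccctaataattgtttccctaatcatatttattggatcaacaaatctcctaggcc
mt-Co1: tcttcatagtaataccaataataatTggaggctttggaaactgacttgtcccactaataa
Gm13340: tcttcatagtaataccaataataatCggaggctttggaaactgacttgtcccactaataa
mt-Cytb: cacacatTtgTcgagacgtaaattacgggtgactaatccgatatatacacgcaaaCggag
Gm11410: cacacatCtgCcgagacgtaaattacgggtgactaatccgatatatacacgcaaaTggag

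The share of 50-base windows found exactly in a nuclear GENCODE transcript was 100% for mt-Co2, 99.9% for mt-Co3 and 99.5% for mt-Atp6. It was 51.1% for mt-Co1, 1.04% for mt-Rnr2, and 0% for mt-Rnr1, mt-Atp8 and mt-Cytb. Only annotated nuclear transcripts were searched. The mt-Co2 and mt-Atp6 copies on chromosome 1 lie 233 bases apart, the same distance as on mitochondrial DNA, where mt-Atp8 fills most of that gap. The 0% of mt-Atp8 therefore says only that no annotated transcript holds its windows.

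Genes with over 90% of windows exactly in a copy had low values. The lowest of the 8 genes was mt-Atp8, whose 0% covers annotated transcripts only, so nothing is read from it here. In counts per kilobase of gene length, the 3 genes with over 90% of windows in a copy averaged 483 to 688 in mutants and 233 to 338 in wild type. Over all 15 mitochondrially encoded genes, the 5 such genes spanned 4.79 to 338 counts per kilobase in wild type and the other 10 spanned 88.2 to 13486, so the ranges overlapped. How reads that match several places were counted was not given in the sources used here. The part of multi-matching reads in these levels was not tested.

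**Figure D1:**
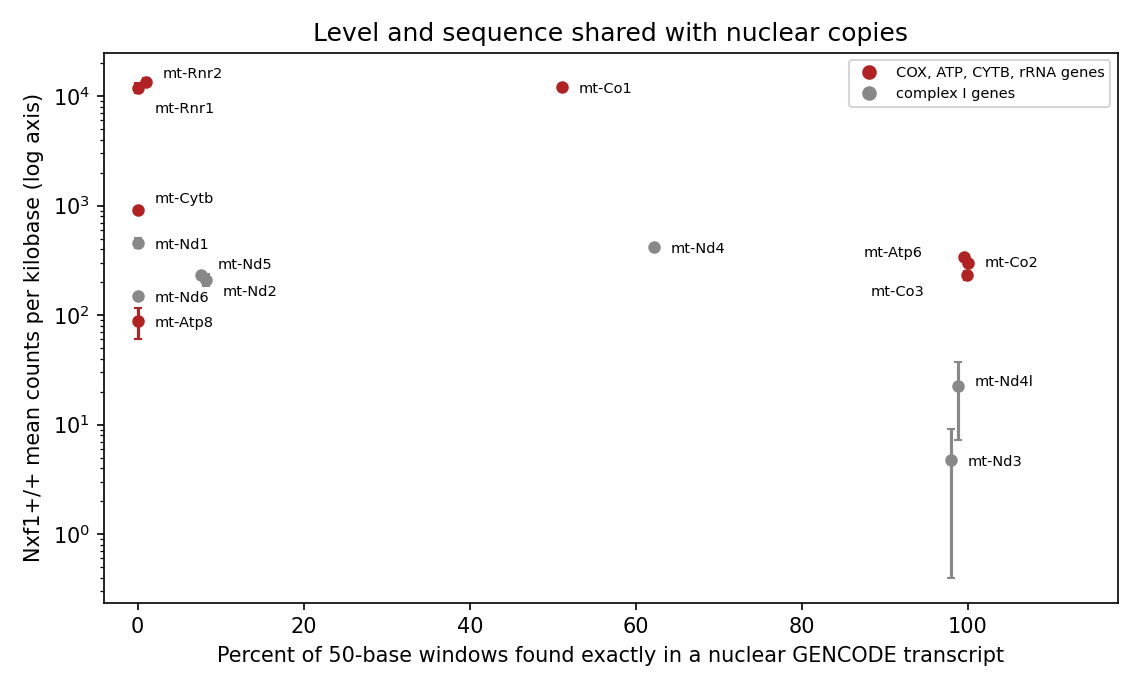
Mean counts per kilobase in the 3 Nxf1+/+ libraries (vertical log axis, bars show SD) against the percent of 50-base windows found exactly in a nuclear GENCODE transcript (horizontal axis), for all 15 mitochondrially encoded genes. mt-Co2, mt-Co3 and mt-Atp6 sit at the right between 233 and 338 counts per kilobase, while mt-Co1, with 51.1% of windows in copies, lies beside the rRNAs near the top.

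The levels of the 8 genes spread widely within each library. Per kilobase, mt-Co1 averaged 20700 ± 4503 counts in mutants and 12190 ± 663 in wild type (mean ± SD, n = 3 each). mt-Rnr2, the large ribosomal RNA, averaged 15879 ± 735 in mutants and 13486 ± 1174 in wild type. mt-Rnr1, the small ribosomal RNA, averaged 14389 ± 1194 in mutants and 11921 ± 1258 in wild type. These 3 transcripts formed the upper group, and mt-Cytb came next with 3929 ± 1661 counts per kilobase in mutants and 918 ± 15.2 in wild type. mt-Atp6 averaged 688 ± 246 in mutants and 338 ± 18.1 in wild type, mt-Co2 576 ± 138 in mutants and 301 ± 2.23 in wild type. mt-Co3 averaged 483 ± 100.2 in mutants and 233 ± 22.5 in wild type, and mt-Atp8 came last with 229 ± 77.9 in mutants and 88.2 ± 27.3 in wild type.

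The order was ranked on the mean of the same 6 libraries and is a description, with no test. Of 7 neighbour pairs, 6 stood in the same order in 6 of 6 libraries. The geometric mean folds per kilobase were 1.12 for mt-Rnr2 over mt-Rnr1, 7.09 for mt-Rnr1 over mt-Cytb and 3.90 for mt-Cytb over mt-Atp6. Lower down they were 1.15 for mt-Atp6 over mt-Co2, 1.24 for mt-Co2 over mt-Co3 and 2.42 for mt-Co3 over mt-Atp8. The top pair had no fixed order: mt-Co1 exceeded mt-Rnr2 in 3 of 3 mutants, and mt-Rnr2 exceeded mt-Co1 in 3 of 3 wild-type libraries. In these counts mt-Co1 stood far above mt-Co2 and mt-Co3, whose products form 1 catalytic core with that of mt-Co1 in equal numbers. Per kilobase, mt-Co1 had 36.1 ± 1.37 times the level of mt-Co2 in mutants and 40.5 ± 2.13 times in wild type, and 43.0 ± 4.23 times the level of mt-Co3 in mutants and 52.5 ± 4.22 times in wild type. Nuclear copies held 100% of mt-Co2 windows and 99.9% of mt-Co3 windows exactly, against 51.1% for mt-Co1. The part of multi-matching reads in these ratios was not tested.

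mt-Co1 encodes the subunit that carries the oxygen-reducing haem and copper centre. It had 1651, 2094 and 2662 CPM in mutants, against 1170, 1360 and 1163 CPM in wild type, where CPM scales a gene's counts to a fixed total of all counts per library. Every mutant library was above every wild-type library, and mutant 3 was the highest. The means were 2136 ± 507 CPM in mutants and 1231 ± 112 CPM in wild type (mean ± SD, n = 3 each), a ratio of 1.74. Within batches 1, 2 and 3 the ratio was 1.41, 1.54 and 2.29.

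mt-Co2, whose product takes electrons from cytochrome c, had 20.4, 24.7 and 33.9 CPM in mutants, against 13.2, 14.0 and 13.1 CPM in wild type. mt-Co3, which encodes the third core subunit, had 19.0, 27.7 and 29.0 CPM in mutants, against 12.1, 13.4 and 10.3 CPM in wild type. The groups did not overlap for either gene. The ratio of means was 1.96 for mt-Co2 and 2.11 for mt-Co3, and batch ratios ran from 1.55 to 2.59 and from 1.56 to 2.81. The balance between them differed by less than its spread, at 1.04 ± 0.140 counts of mt-Co2 per count of mt-Co3 in mutants and 1.13 ± 0.120 in wild type.

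mt-Atp6 encodes the subunit that forms the proton path of ATP synthase, and mt-Atp8 a small subunit of the same membrane part. mt-Atp6 had 20.96, 28.8 and 44.3 CPM in mutants, against 14.2, 16.6 and 14.4 CPM in wild type, a ratio of means of 2.08. mt-Atp8 was the least abundant of the 8 genes, with 37, 38 and 65 counts in mutants and 19, 23 and 12 in wild type. Neither gene's groups overlapped, but the mt-Atp8 values are imprecise: the highest wild-type library had 1.56 CPM (95% Wilson interval 1.04 to 2.35) and the lowest mutant 2.44 CPM (1.77 to 3.36). Its batch ratios were 1.99, 1.59 and 5.84, and its ratio of means was 2.64. mt-Atp6 had 10.04 ± 1.48 counts per count of mt-Atp8 in mutants and 13.7 ± 4.54 in wild type, a difference within the spread. The 43 shared bases touch both counts.

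mt-Cytb, the only complex III subunit made in mitochondria, had the widest gap of the 8 genes. It had 177, 284 and 442 CPM in mutants, against 68.7, 71.8 and 65.3 CPM in wild type. The mutants differed among themselves by more than the wild-type libraries did: the SD was 134 CPM around a mean of 301 in mutants and 3.28 CPM around 68.6 in wild type (n = 3 each). The ratio of means was 4.39, and batch ratios were 2.57, 3.96 and 6.77. Relative to mt-Co1 in the same library, mt-Cytb had 0.136 ± 0.0296 counts in mutants and 0.0559 ± 0.0029 in wild type, a ratio that needs no scaling between libraries.

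The ribosomal RNAs overlapped between genotypes as shares of all counts. mt-Rnr1 had 823, 919 and 1006 CPM in mutants, against 656, 854 and 724 CPM in wild type. mt-Rnr2 had 1568, 1680 and 1773 CPM in mutants, against 1280, 1591 and 1314 CPM in wild type. For both, wild-type library 2 was above mutant library 1. The ratio of means was 1.23 for mt-Rnr1 and 1.20 for mt-Rnr2, and batch 2 had the lowest ratios, 1.08 and 1.06. With TMM scaling, the factor per library used in the fit across all genes, the overlap was gone. In TMM-scaled CPM, mt-Rnr1 had 1144, 1178 and 950 in mutants, against 534, 767 and 589 in wild type, and mt-Rnr2 had 2179, 2154 and 1675 in mutants, against 1042, 1428 and 1069 in wild type. The rRNAs kept step with each other, with 1.83 ± 0.0712 counts of mt-Rnr2 per count of mt-Rnr1 in mutants and 1.88 ± 0.0691 in wild type.

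**Figure D2:**
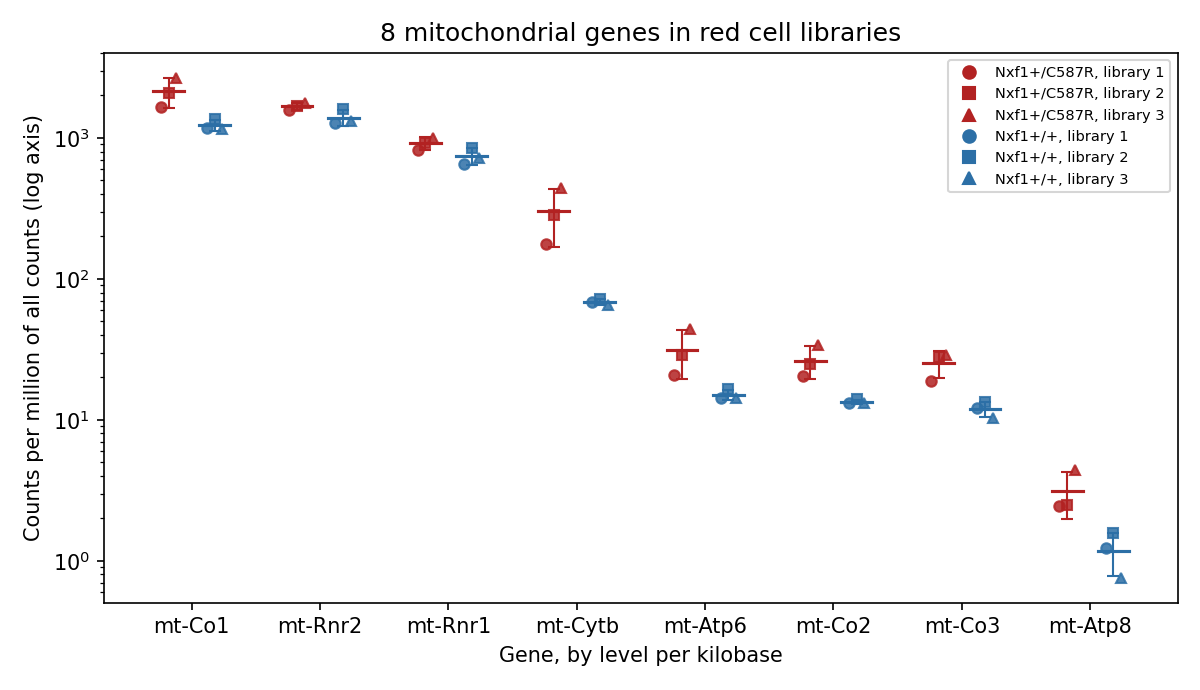
CPM of all counts (log axis) of the 8 genes, ordered by level per kilobase, in each Nxf1+/C587R library (red) and Nxf1+/+ library (blue), with marker shape for the library number, a line for the mean and a bar for the SD (n = 3 each). The groups stand apart for the 6 mRNAs, most of all for mt-Cytb at 301 against 68.6 CPM, and overlap for mt-Rnr1 and mt-Rnr2, an overlap that is absent in TMM-scaled values.

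Together the 8 genes took 0.428%, 0.506% and 0.599% of all counts in mutants, against 0.322%, 0.392% and 0.330% in wild type, a ratio of means of 1.47. The 6 mRNAs took 0.189%, 0.246% and 0.322% in mutants, against 0.128%, 0.148% and 0.127% in wild type, a ratio of 1.88. The 2 rRNAs took 0.239%, 0.260% and 0.278% in mutants, against 0.194%, 0.245% and 0.204% in wild type, a ratio of 1.21. In shares of all counts, mutant 3 was the highest and mutant 1 the lowest of its group for each of the 8 genes. That ranking depended on the scaling: with TMM, mt-Co1 and mt-Co3 were highest in mutant 2, and both rRNAs were lowest in mutant 3. Over all 2823 genes tested, 5.31% had every mutant share above every wild-type share; 6 of the 8 genes did, all of them mRNAs, and nothing is read from that count because the genotype difference chose them.

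A fit across all genes put these differences on the log2 scale. It was edgeR's quasi-likelihood test with TMM scaling (a factor per library that sets most genes level) and an adjusted p under 0.05 as the threshold. It called 169 of 2823 genes higher in mutants (5.99%) and 30 lower (1.06%). All 8 genes were among those called higher, and since this contrast chose them nothing is read from that count. The log2 fold changes of mutant over wild type, with SE, were 1.26 (0.16) for mt-Co1, 1.44 (0.17) for mt-Co2 and 1.56 (0.19) for mt-Co3. They were 1.50 (0.19) for mt-Atp6, 1.85 (0.31) for mt-Atp8 and 2.57 (0.19) for mt-Cytb. The rRNAs had 0.79 (0.17) for mt-Rnr1 and 0.76 (0.17) for mt-Rnr2. The median was 1.53 over the 6 mRNAs and 0.78 over the 2 rRNAs, beside −0.06 over all genes tested.

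Scaling by total counts, with no TMM factors, moved all values down, since the median of all genes tested was then −0.53. In that fit 115 genes were called higher (4.07%) and 245 lower (8.68%). The 6 mRNAs were called higher and the 2 rRNAs were not called in either direction. The median log2 fold change was 1.07 over the mRNAs and 0.28 over the rRNAs. The rRNAs lay below every mRNA on this scale under both scalings. With TMM, leaving out mutant library 2 or wild-type library 3 took both rRNAs below the threshold with little change in the log2 fold change (0.78 and 0.75 for mt-Rnr1, 0.76 and 0.70 for mt-Rnr2). Leaving out mutant library 1 did so for mt-Rnr2 (0.77).

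The make-up of the 8 genes' counts needs no scaling between libraries. The rRNAs made up 55.9% (95% Wilson interval 55.5 to 56.2), 51.3% (51.0 to 51.7) and 46.4% (46.0 to 46.7) of these counts in mutants. In wild type they made up 60.2% (59.8 to 60.6), 62.3% (61.9 to 62.7) and 61.7% (61.2 to 62.1). The groups did not overlap: the means were 51.2% ± 4.75 in mutants and 61.4% ± 1.08 in wild type (mean ± SD, n = 3 each), and the difference within batches was −4.36, −10.99 and −15.3 percentage points. Put as a ratio, the mRNAs had 0.791, 0.947 and 1.16 counts per rRNA count in mutants, against 0.661, 0.604 and 0.622 in wild type.

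Within the mRNAs the balance also differed between genotypes. mt-Co1 made up 87.3%, 85.05% and 82.8% of mRNA counts in mutants, against 91.4%, 92.1% and 91.8% in wild type. mt-Cytb made up 9.34%, 11.5% and 13.7% in mutants, against 5.37%, 4.86% and 5.15% in wild type. The other 4 mRNAs together held 3.40% ± 0.0772 in mutants and 3.10% ± 0.0719 in wild type (mean ± SD, n = 3 each). Mutant library 3 lay farthest from wild type in each of these shares and mutant library 1 nearest.

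**Figure D3:**
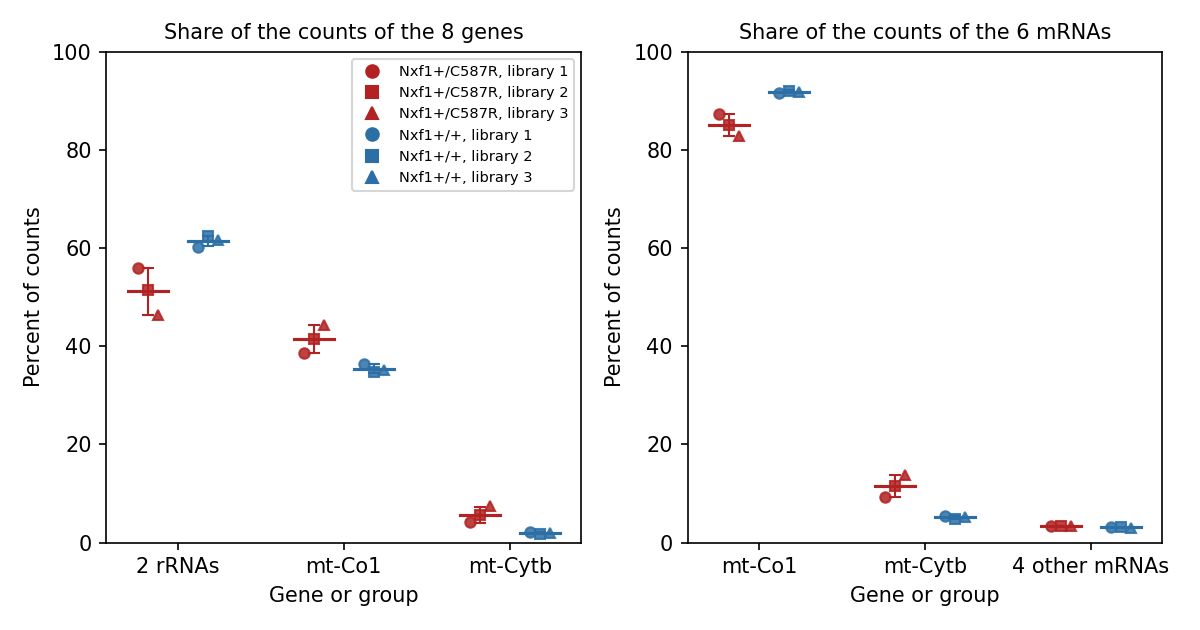
Percent of the counts of the 8 genes (left) and of the 6 mRNAs (right) held by each gene or group, in Nxf1+/C587R libraries (red) and Nxf1+/+ libraries (blue), with marker shape for the library number, a line for the mean and a bar for the SD (n = 3 each). The rRNA share was lower in all 3 mutants, at 51.2% against 61.4% on average, and mt-Cytb held 11.5% of mRNA counts in mutants against 5.13% in wild type.

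The complex I mRNAs from the same mitochondrial genome stood farther from wild type than the 8 genes did as a sum and by their median. mt-Nd4 was an exception, with a ratio of means of 3.86 (log2 2.39 with TMM), below the 4.39 of mt-Cytb. Summed over the 7 genes they had 444, 708 and 1090 CPM in mutants, against 115, 109 and 116 CPM in wild type, a ratio of means of 6.60. The median log2 fold change over the 6 complex I genes tested was 3.37 with TMM and 2.94 with total counts (mt-Nd3 did not pass the filter). Per count of the 6 mRNAs there were 0.287 ± 0.0520 complex I counts in mutants and 0.0851 ± 0.0099 in wild type (mean ± SD, n = 3 each). Of the 8 genes, mt-Cytb lay nearest to them: complex I had 2.52, 2.49 and 2.47 counts per mt-Cytb count in mutants, against 1.67, 1.52 and 1.78 in wild type. These differences come from the contrast that chose the genes and were not tested.

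**Figure D4:**
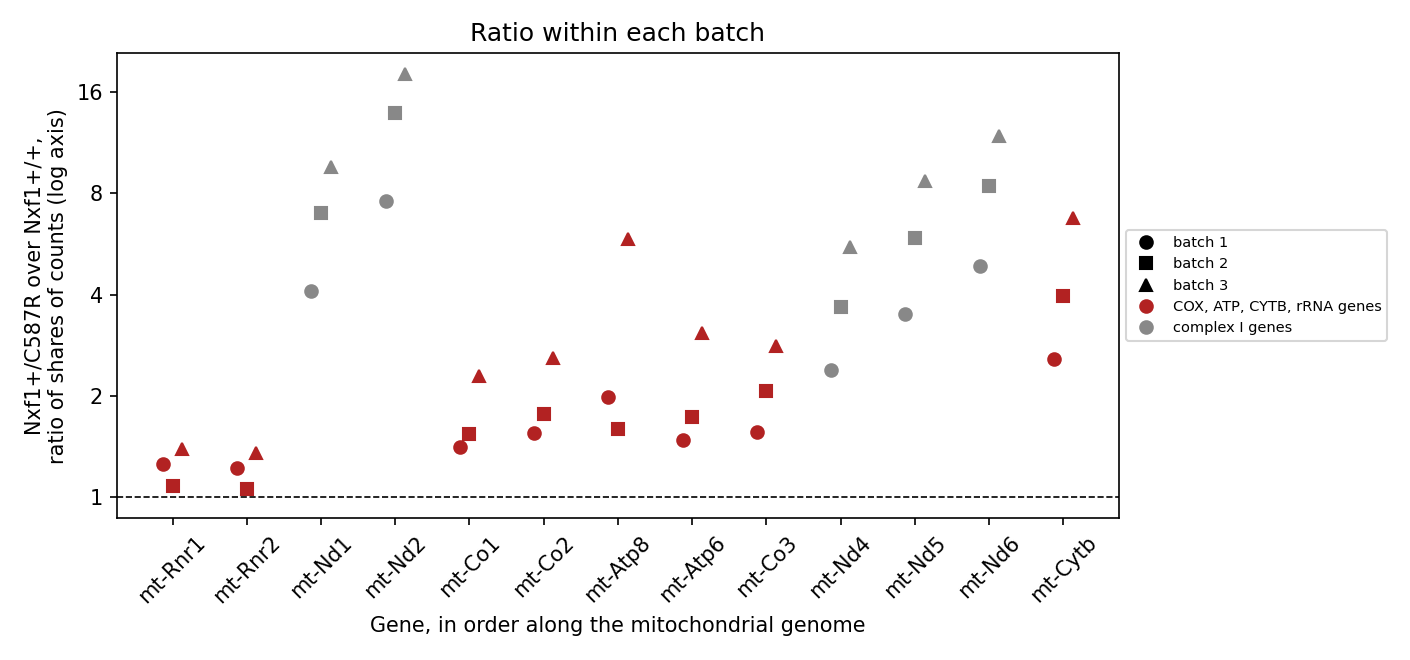
Ratio of the Nxf1+/C587R share of counts to the Nxf1+/+ share (log axis) within each of the 3 batches, for the mitochondrially encoded genes in order along the genome, red for the 8 genes and grey for complex I genes. mt-Nd3 and mt-Nd4l, with few counts in wild type, are not drawn. The rRNAs lie between 1.06 and 1.39, and batch 3 has the highest ratio for every gene drawn.

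The protein partners of these subunits are encoded in the nucleus, and most of them were near the lower limit of counting. Of 201 nuclear genes listed, which cover cytochrome c oxidase, complex III, ATP synthase and mitochondrial gene expression, 192 had a count and 35 passed the filter. With TMM, 1 of the 35 was called higher in mutants and 0 lower, and their median log2 fold change was 0.03. With total counts 0 were called higher and 2 lower, with a median of −0.46 beside −0.53 for all genes. These shares stand beside 5.99% and 1.06% of all genes with TMM, and 4.07% and 8.68% with total counts.

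None of the 9 tested nuclear cytochrome c oxidase subunits was called. Cox8a, a small subunit, had 398, 395 and 400 counts in mutants, against 604, 467 and 543 in wild type (log2 0.11 with TMM, edgeR adjusted p = 0.820). Cox6c, another small subunit, had 357, 423 and 462 counts in mutants, against 442, 419 and 419 in wild type (log2 0.48, edgeR adjusted p = 0.104). Cox17, the copper chaperone of the oxidase, had a log2 fold change of 0.24 (edgeR adjusted p = 0.599), and Coa5, another assembly factor, had −0.24. Of 4 tested assembly factors 0 were called.

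Under either scaling, the called nuclear partners all belonged to ATP synthase. Atp5mpl, a small subunit of its membrane part, had 177, 197 and 213 counts in mutants, against 157, 191 and 177 in wild type (log2 0.68, SE 0.19, edgeR adjusted p = 0.0365). That call was lost without mutant library 1, mutant library 2, wild-type library 1 or wild-type library 3, with total counts, and with no filter. Atp5b, the catalytic beta subunit, had 838, 927 and 1078 counts in mutants, against 1787, 1543 and 2016 in wild type. It was called lower with total counts (log2 −0.88, edgeR adjusted p = 0.000706) and not with TMM (log2 −0.38, adjusted p = 0.166). Atpif1, the inhibitor of ATP synthase when it runs in reverse, did likewise (log2 −1.28, edgeR adjusted p = 0.00816 with total counts; −0.83 and 0.0514 with TMM). The mitochondrially encoded subunits mt-Atp6 and mt-Atp8 had log2 fold changes of 1.06 and 1.40 with total counts.

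Complex III and cytochrome c had 6 of 16 genes tested and none called; Uqcrh and Uqcr10, small subunits, had log2 fold changes of 0.03 and −0.20 with TMM. The machinery that makes and reads mitochondrial RNA was hardly measured. Of 19 genes for mitochondrial DNA transcription and replication 0 passed the filter, and their summed counts were 17, 22 and 19 in mutants, against 27, 19 and 34 in wild type. Of 26 genes for mitochondrial RNA processing and stability 1 passed, Rexo2, which encodes an RNase for short RNA fragments (log2 0.03). Of 80 mitochondrial ribosomal protein genes 3 passed and none was called, among them Mrpl32 (log2 −0.02) and Mrps21 (log2 −0.36).

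Transcripts of another tissue were also higher in the mutant libraries. The 20 hepatocyte markers summed to 1633, 3669 and 2047 counts in mutants, against 93, 20 and 15 in wild type. Of 18 tested, 16 were called higher and 0 lower with TMM, beside 5.99% and 1.06% of all genes. None of the 20 was at 0 in a mutant library, and 17, 17 and 16 were at 0 in wild type. Most of those tested therefore passed the filter only through the mutant libraries and could hardly be called lower. Nothing is read from the 16 calls. Alb, the plasma albumin gene, had 490, 1136 and 800 counts in mutants, against 0, 1 and 0 in wild type. Ttr supplied 90 of the 93 counts in wild-type library 1. The hepatocyte sum was highest in mutant library 2, and so was the sum of the 8 genes with TMM, whereas in shares of all counts the 8 genes were highest in mutant library 3. The 6 mRNAs had 17.6, 10.2 and 23.0 counts per hepatocyte marker count in mutants, and 213, 1087 and 1334 in wild type. The part of hepatocyte RNA in the mitochondrial values was not tested. In bulk RNA, more cells of a type and more RNA per cell cannot be told apart.

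Markers of other blood cells did not share this pattern. Their calls stand beside 5.99% of all genes higher and 1.06% lower with TMM. The 14 platelet markers summed to 262, 98 and 198 counts in mutants, against 215, 217 and 392 in wild type, with 0 of 9 tested called. The 14 lymphocyte markers summed to 70, 70 and 59 counts in mutants, against 125, 150 and 289 in wild type. Gzma, a granule protease of killer lymphocytes, was the 1 of 5 tested that was called, and it was lower (log2 −2.10, edgeR adjusted p = 0.00428). The 14 neutrophil and monocyte markers summed to 1259, 1166 and 2215 counts in mutants, against 2416, 1876 and 1951 in wild type, with 0 of 6 tested called. With batch as a term 1 of them was called higher, Lyz2, a lysozyme gene (log2 0.84, edgeR adjusted p = 0.00138). Elane had 0 counts in every library. The 12 heart and skeletal muscle markers, listed because blood was drawn through the heart, had at most 3 counts in a mutant library and at most 4 in a wild-type library.

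Young red cells are the stage that still holds mitochondria. The 12 erythroblast and reticulocyte markers other than Hbb-bs and Alas2 summed to 9603, 10614 and 12354 counts in mutants, against 12804, 14532 and 16838 in wild type. Most of these unscaled counts were Bnip3l. Over the 11 genes tested from the full list, the median log2 fold change was 0.03 with TMM and −0.43 with total counts, beside −0.06 and −0.53 over all genes tested. Tfrc, the transferrin receptor of iron-loading red cell precursors, had 100, 60 and 246 counts in mutants, against 145, 577 and 706 in wild type. Cd24a, a surface protein of erythroblasts, had 842, 880 and 1212 counts in mutants, against 1719, 2241 and 2467 in wild type. Tfrc and Cd24a were picked after their values were seen. Alas2, with Hbb-bs the most abundant of these markers, had a log2 fold change of 0.41 with TMM (edgeR adjusted p = 0.201). With total counts it had −0.10 (edgeR adjusted p = 0.163). By the TMM fit 1 of the 11 was called higher (Hbb-bs, whose reads can also match other beta globin genes) and 1 lower (Cd24a). The Hbb-bs call was lost with batch as a term. Total counts gave 1 called higher, again Hbb-bs (log2 0.11, edgeR adjusted p = 0.0299), and 3 called lower, Cd24a, Mki67 and Slc4a1. Beside these calls, 5.99% of all genes were called higher and 1.06% lower with TMM. With total counts the shares were 4.07% and 8.68%. The part of red cell age in the mitochondrial values was not tested.

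Likeness between genes was described by Pearson's r of log2(CPM + 1), TMM-scaled, over the 6 libraries, which fall into the 2 genotypes and share their depth. Among the 8 genes, mt-Rnr1 and mt-Rnr2 had r = 0.994, mt-Co1 and mt-Co2 r = 0.995, and mt-Cytb and mt-Rnr2 r = 0.862. Of 261 nuclear genes compared, the profile of the summed mRNAs was nearest to the hepatocyte markers Alb (r = 0.985) and Trf (r = 0.983). Mup7, a major urinary protein gene of the liver (r = 0.978), Apoe, an apolipoprotein gene (r = 0.968), and Cox6c (r = 0.948) followed. The profile of the summed rRNAs was nearest to Plaat3, a phospholipase gene (r = 0.997), and Atp5mpl (r = 0.997). Smox, the spermine oxidase gene (r = 0.985), Bola3, a factor for mitochondrial iron-sulfur proteins (r = 0.978), and Cox6c (r = 0.973) followed. The 2 lists of 5 shared 1 gene, Cox6c. Alb, Trf, Mup7 and Apoe passed the minimum of 10 CPM only through the mutant libraries, and an r across both genotypes largely restates the genotype difference that chose the genes, so nothing is read from these lists.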

How the data were processed

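RNA-seq libraries of purified red cells from 6 mice were analysed from the deposited count files. Each holds 1 library's whole-number counts by gene, unscaled, per the file headers. The submitters' processing notes name CASAVA 1.8.2, Subread, featureCounts and mm10. The annotation, strand setting and handling of reads that match several places are not given in the sources used here, so a gene and its antisense partner cannot be told apart. Entrez gene numbers were matched to RefSeq symbols for 25275 of 27179 genes, and the 1904 others took 1.39% of counts.

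The 8 genes, the gene lists and the tests were chosen with earlier results of these data known. Genotypes were compared with edgeR 4.0.16 in R 4.3.3 (quasi-likelihood F test, robust, TMM, filterByExpr, Benjamini-Hochberg over 2823 genes, calls at an adjusted p under 0.05). Standard errors were log2 fold changes over the square root of F. The named genes were the 8 genes, per pathway list those called or else the 2 most abundant tested, the 5 nuclear genes of at least 10 CPM most like each sum, and the most abundant markers. Genes named beyond these (Nxf1, Epor, Gata1, Bnip3l, Slc4a1, Tfrc, Cd24a, Mki67, Lyz2, Gzma, Elane and Ttr) were picked after their values were seen. The test was checked on simulated counts.

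Gene lengths, positions and copies came from GENCODE M21 transcripts, searched with blastn 2.17.0 at 90% identity and by exact 50-base windows. Both searches took only the strand of each transcript, and blastn hits on 1 chromosome were left out. Wilson intervals cover counting error only, as reads had no molecular identifiers. A count of 0 allows up to 3 counts, or 0.190 to 0.205 CPM. Each library is 1 animal, so replicates are biological. Each batch number in the labels joins 1 mutant with 1 wild-type library and pairs them. The deviations of paired libraries from their group means had r of −0.116, −0.0855 and −0.0439 over 2823 genes.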

Additional observations from a re-analysis of the deposited data

How the results depend on the processing

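The fit across all genes called 199 genes with TMM, 194 with RLE scaling, 193 with globin genes removed and 188 with DESeq2 1.42.0. It called 360 with total counts and 464 with no filter, where more genes were tested. With batch as a replicate block it called 254, 194 higher and 60 lower. Leaving out 1 library gave 152 to 278.

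Of the 8 mitochondrial genes, 6 were called with total counts and 6 to 8 on leaving out 1 library; these counts follow from how the genes were chosen, and nothing is read from them. No fold change of the 8 genes reversed under any setting run. The ratio of their share of counts ran from 1.34 to 1.59, beside 1.47, on leaving out 1 library. The difference in rRNA share, −10.2 percentage points, ran from −12.6 to −7.81 on leaving out 1 library, was −7.78 without mt-Co1 and −14.5 with complex I added. Of 7 neighbour pairs per kilobase, 6 stood in the same order in every library, also with shared bases left out, in wild type alone or with 1 library left out, and 7 did in mutants alone.

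Among the 35 nuclear partners, 1 call with TMM became 2 with total counts, 2 with the paired fit (replicate block), where Atpif1 was lower (log2 −0.79, edgeR adjusted p = 0.00626), and 0 to 2 on leaving out 1 library. Without mutant library 3, Cox6c was called higher (log2 0.62, edgeR adjusted p = 0.0384). With no filter the single call was Atpif1, lower (edgeR adjusted p = 0.0362). The cause of these changes was not tested. Few counts kept most nuclear partners out of the test, and 3 animals a group limit all values.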
